A study of Mus musculus with 14 samples.

Results

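The 10 genes described here encode 6 ligands and the 4 receptors of the epidermal growth factor family in mouse kidney. They were chosen by symbol: Egf, Tgfa, Hbegf, Areg, Ereg and Btc among ligands, and Egfr, Erbb2, Erbb3 and Erbb4. All 10 were found among the 47729 genes of the count files, and all 10 were among the 17926 genes with enough counts to be tested. RNA from whole kidney was sequenced in 14 libraries, to compare obstructed with untreated kidney and mice labelled transgenic for Smoc2 with wild type. UUO is unilateral ureteral obstruction, the surgical closing of the ureter of one kidney, which leads to tubular injury and fibrosis. SMOC2 is a secreted calcium-binding protein of the extracellular matrix.

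The groups were 4 libraries of kidney labelled SMOC2 transgenic after 7 days of UUO (SMOC2 UUO), 4 of wild-type kidney after 7 days of UUO (WT UUO), 3 of untreated kidney labelled SMOC2 transgenic (SMOC2 normal) and 3 of untreated wild-type kidney (WT normal). Replicates are numbered as labelled, so the SMOC2 normal libraries are 1, 3 and 4. The labels state neither the promoter nor the line of the transgene, nor a strain, age or sex that fits these groups. A protocol text attached to the samples tells of folic acid in male Balb/c mice, which is not the treatment their titles name, and the groups follow the titles, genotype and treatment labels. Whether the libraries come from separate animals is not stated, so p-values measure only the spread between these libraries, which may be technical. Total counts ran from 21584036 to 27670785 in SMOC2 UUO, 20667885 to 26171382 in WT UUO, 19483994 to 23994849 in SMOC2 normal and 22104417 to 30033405 in WT normal libraries. In CPM, counts per 1000000 of the scaled library, Smoc2 itself averaged 96.1 ± 18.5 CPM in SMOC2 UUO and 147 ± 11.4 CPM in WT UUO (SD, n = 4 each), and 21.8 ± 9.66 CPM in SMOC2 normal and 25.2 ± 16.1 CPM in WT normal (SD, n = 3 each). Smoc2 was thus not higher under the SMOC2 label. In UUO kidney it was lower there without overlap, at 83.9 to 124 CPM in SMOC2 UUO and 131 to 158 CPM in WT UUO libraries. The differences between genotypes given below are therefore differences between labels. Kidney markers were present: Lrp2, the proximal tubule endocytic receptor megalin, averaged 6319 ± 1007 CPM in SMOC2 normal and 6442 ± 400 CPM in WT normal libraries (SD, n = 3 each).

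Ligands of this family are made as membrane-anchored precursors that proteases of the ADAM family release. EGFR binds all 6 ligands, ERBB4 binds a subset of them and the neuregulins, ERBB3 binds neuregulins and has little kinase activity, and ERBB2 has no known soluble ligand and acts as a partner of the others. In the kidney, EGF is made mainly by the thick ascending limb and distal convoluted tubule, where it acts on magnesium transport and epithelial repair, while amphiregulin, heparin-binding EGF and epiregulin are known as ligands that injury induces.

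Egf (ENSMUSG00000028017) lies at chr3:129677565-129755316 on the minus strand of GRCm38 (mm10). Areg (ENSMUSG00000029378, amphiregulin) and Ereg (ENSMUSG00000029377, epiregulin) lie side by side on the plus strand at chr5:91139599-91148432 and chr5:91074622-91093646, 45952 bases apart. Btc (ENSMUSG00000082361, betacellulin) follows on the minus strand of the same chromosome at chr5:91357261-91402994, 208828 bases beyond Areg, with 0 other protein-coding genes between these 3. The promoters of Egf and Areg are shown because these 2 ligands had the largest fitted fall and rise among the members after obstruction. Each is the 250 bases before a RefSeq start on GRCm38.p6, 5′ to 3′ on the gene's strand. For Egf the window nearest the gene's annotated start is printed, and a further RefSeq window lies 30230 bases from that start. In capitals are 2 motifs: the cyclic AMP response element TGACGTCA and the TATA box letters TATAAA.
Areg, chr5:91139349-91139598, plus strand: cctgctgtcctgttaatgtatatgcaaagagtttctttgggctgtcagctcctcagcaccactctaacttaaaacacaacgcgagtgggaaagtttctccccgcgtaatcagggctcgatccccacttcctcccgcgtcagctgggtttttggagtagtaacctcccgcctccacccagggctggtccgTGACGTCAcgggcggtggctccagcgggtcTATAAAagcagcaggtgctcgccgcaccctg
Egf, chr3:129755323-129755572, minus strand: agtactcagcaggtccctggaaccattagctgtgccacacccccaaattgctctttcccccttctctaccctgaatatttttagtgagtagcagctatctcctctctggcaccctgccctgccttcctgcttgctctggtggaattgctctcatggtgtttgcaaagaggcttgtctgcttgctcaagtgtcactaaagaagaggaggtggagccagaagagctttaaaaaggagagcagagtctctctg
The Areg window held TGACGTCA at positions -61 to -54 and TATAAA at -31 to -26, counted back from the start. Searched on both strands, TGACGTCA was in 1.56% of 32526 RefSeq promoter windows of the same length and TATAAA in 12.3%. Neither was in the printed Egf window, and TGANTCA, the AP-1 motif, which 6.73% of all windows held, was in neither printed window. The core TGACG, which lies within TGACGTCA, was in 17.9% of windows, among them those of Areg, Btc and Erbb2. RefSeq windows of 7 of the 10 members were searched, and Hbegf, Ereg and Erbb3 were not part of the search. A match is a run of letters and not a shown binding site.

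After 7 days of obstruction the log2 changes of the ligands ran from -5.11 to 5.09 and those of the receptors from -0.58 to 0.24. Egf fell steeply, Btc fell, and Areg and Ereg rose in kidneys of both labels, while Hbegf rose in wild type. In WT UUO against WT normal kidney, 3 of the 10 genes rose (Hbegf, Areg, Ereg) and 5 fell (Egf, Btc, Erbb2, Erbb3, Erbb4) at an adjusted p under 0.05 by edgeR's quasi-likelihood test. Of all genes tested in that comparison, 31.3% rose and 29.8% fell. In SMOC2 UUO against SMOC2 normal kidney, 2 rose (Areg, Ereg) and 4 fell (Egf, Btc, Erbb3, Erbb4), where 32.5% of all genes tested rose and 30.4% fell. Such counts of 10 genes lie near the shares of all genes, apart from the 5 falls in wild type, and are no result about the family. The median log2 change over the 10 members was -0.24 in SMOC2 kidney and -0.27 in wild-type kidney, beside 0.04 and 0.05 over all genes tested. In wild-type kidney 3 members were called without WT normal 3, and 5 without WT normal 1 or without WT UUO 4. In SMOC2 kidney 3 were called without SMOC2 normal 4. UUO and normal libraries did not overlap for 5 members in SMOC2 kidney (Egf, Areg, Ereg, Btc and Erbb3) and for 4 in wild-type kidney (Egf, Areg, Ereg and Btc). Of all genes tested, 62.7% in SMOC2 and 60.8% in wild-type kidney did not overlap either, so these counts are no result about the family.

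**Figure D1:**
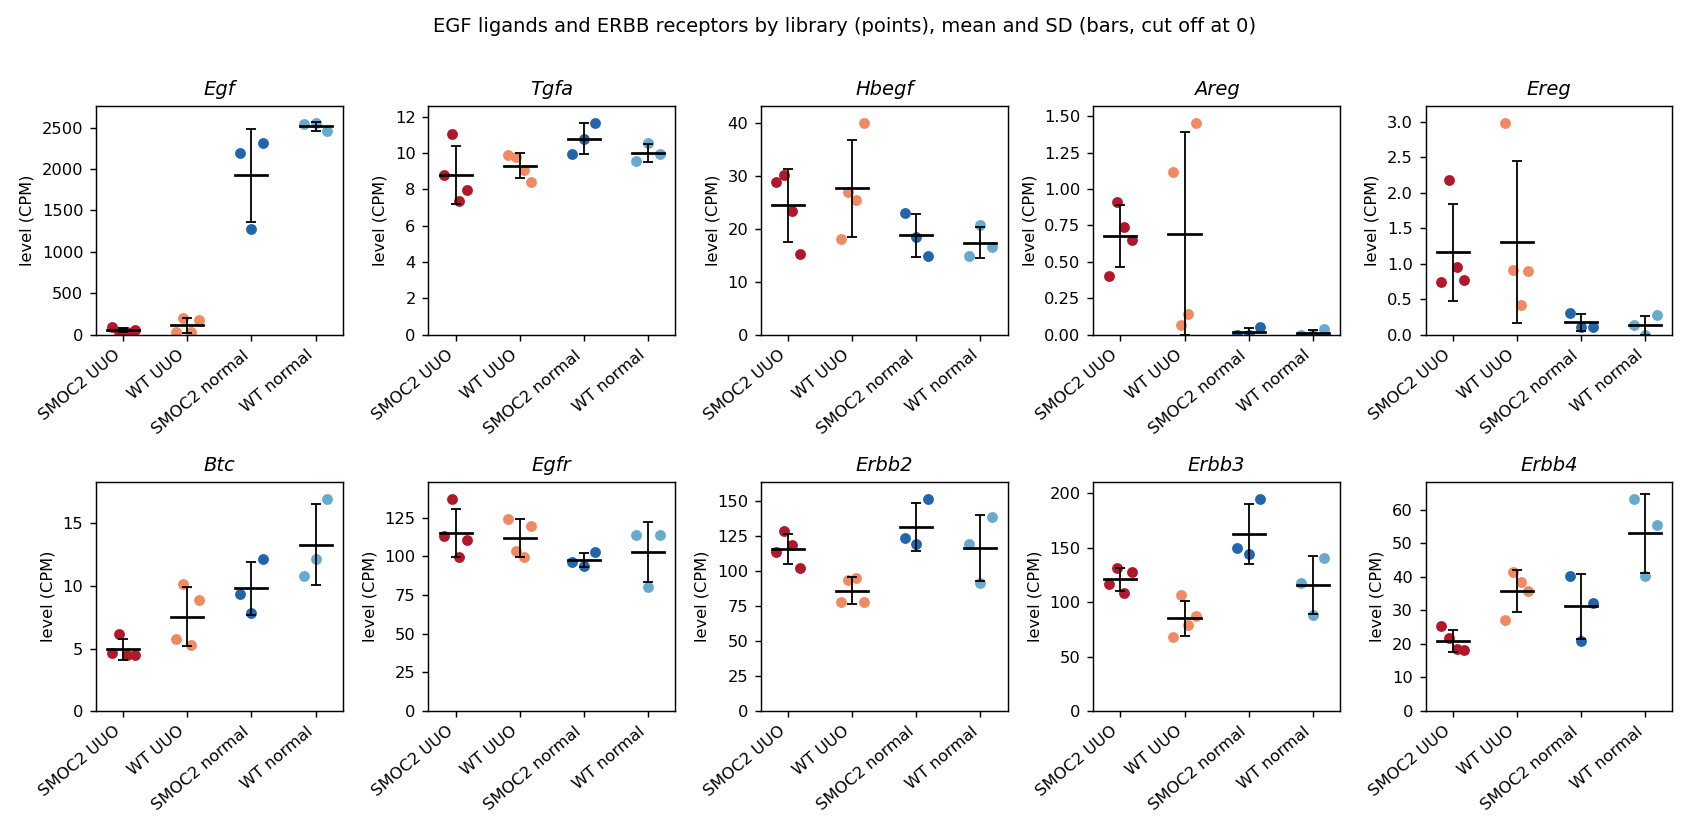
Level of each of the 10 genes in CPM (vertical axis from 0, own scale per gene) in 4 SMOC2 UUO, 4 WT UUO, 3 SMOC2 normal and 3 WT normal libraries. Points are libraries, and bars the mean and SD, cut off at 0; Egf in UUO libraries sits at 33.9 to 208 CPM, below all normal libraries at 1281 to 2556 CPM.

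**Figure D2:**
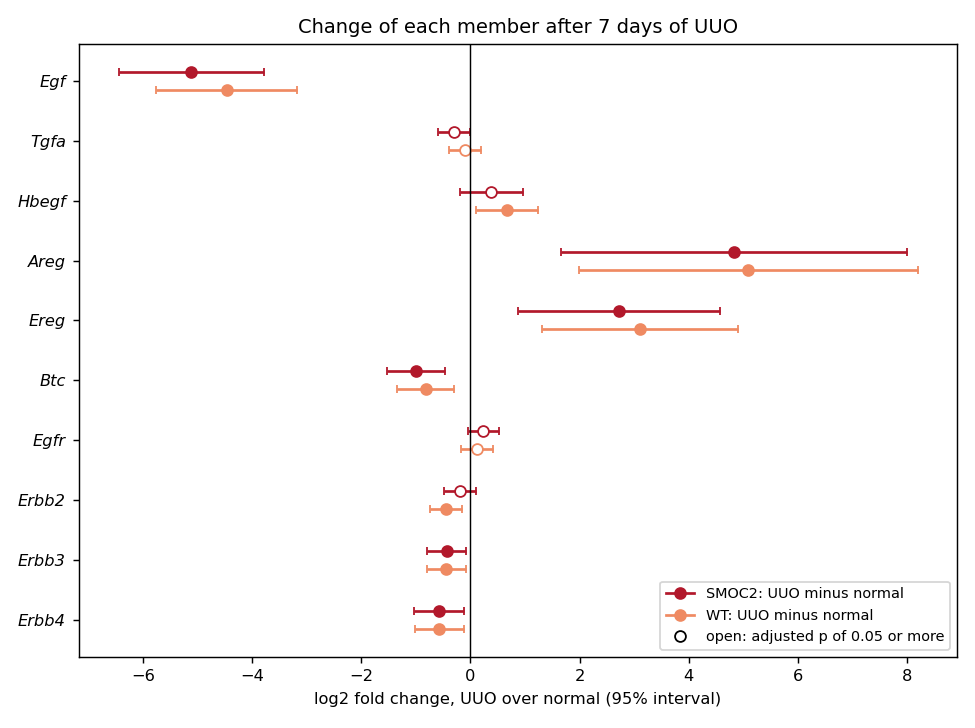
log2 fold change of UUO over normal for each gene (horizontal axis, edgeR, with 95% interval), in SMOC2 kidney (dark red) and WT kidney (orange). Filled points passed an adjusted p under 0.05; Egf lies at -5.11 and -4.46, and Areg at 4.83 and 5.09, in SMOC2 and WT kidney.

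Egf, the founding ligand, was the most abundant member in normal kidney and lost most of its transcript after obstruction. It stood at 91.2, 38.3, 36.7 and 56.2 CPM in SMOC2 UUO libraries 1 to 4, against 2189.8, 1281 and 2309 CPM in SMOC2 normal libraries 1, 3 and 4. In wild type it stood at 33.9, 207.9, 35.9 and 180.2 CPM in WT UUO libraries 1 to 4, against 2542, 2556 and 2457 CPM in WT normal libraries 1 to 3. Every UUO library was below every normal library by a wide margin, and the WT UUO libraries fell into a higher pair, 2 and 4, and a lower pair, 1 and 3. The log2 change was -5.11 in SMOC2 kidney (SE 0.62, 34.6-fold lower, adjusted p = 6.40e-06) and -4.46 in wild-type kidney (SE 0.60, 22.0-fold lower, adjusted p = 1.93e-05). In whole-kidney RNA, fewer cells of a type and less RNA per cell cannot be told apart. Exons of 2 antisense genes on the opposite strand cover 5.38% and 4.43% of the Egf exon bases, and these genes had at most 45 and 96 counts in any library.

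Egf was set beside 15 markers of the thick ascending limb and distal convoluted tubule. Of these, 14 fell in SMOC2 and 14 in wild-type kidney, where 30.4% and 29.8% of all genes tested fell. Their median log2 change was -1.75 and -1.72, beside 0.04 and 0.05 over all genes tested. Egf had a lower log2 change than all of them other than Pvalb, the gene of the calcium buffer parvalbumin, which stood at -6.49 in SMOC2 and -5.76 in wild-type kidney. Umod, which encodes uromodulin of the thick ascending limb, fell by 1.67 in SMOC2 kidney (SE 0.24, adjusted p = 3.34e-05) and by 1.48 in wild-type kidney on the log2 scale (SE 0.24, adjusted p = 1.03e-04). Slc12a1, the sodium-potassium-chloride cotransporter, fell by 3.14 in SMOC2 kidney (SE 0.34) and by 2.73 in wild-type kidney (SE 0.34) on the log2 scale. Slc12a3, the sodium-chloride cotransporter of the distal convoluted tubule, fell by 1.76 in SMOC2 kidney and by 1.96 in wild-type kidney on the log2 scale (SE 0.23 each). Trpm6, the magnesium channel of the same segment, fell by 0.78 in SMOC2 and by 1.10 in wild-type kidney on the log2 scale. For each 100 CPM of Umod there were 4.34 ± 0.96 CPM of Egf in SMOC2 UUO and 5.66 ± 3.49 CPM in WT UUO (SD, n = 4 each). The same quantity was 48.2 ± 11.3 CPM in SMOC2 normal and 51.6 ± 8.93 CPM in WT normal libraries (SD, n = 3 each), so the UUO and normal ranges did not overlap. Relative to Slc12a1 it was 23.6 ± 6.30 CPM in SMOC2 UUO and 24.4 ± 10.9 CPM in WT UUO, against 94.7 ± 3.19 CPM in SMOC2 normal and 95.99 ± 19.3 CPM in WT normal libraries.

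Tubule transcripts of more than 1 segment split the WT UUO libraries in the same way as Egf. The summed level of the 15 markers was 4527 CPM in WT UUO 2 and 3918 CPM in WT UUO 4, and 2369 CPM in WT UUO 1 and 2733 CPM in WT UUO 3. Slc12a1 was at 576 and 579 CPM in WT UUO 2 and 4, and at 203 and 264 CPM in WT UUO 1 and 3. The split was also seen in 8 proximal tubule markers, whose sum was 4009.8 and 4549.9 CPM in WT UUO 2 and 4, and 1699 and 1736 CPM in WT UUO 1 and 3. Trpm6 did not share it, at 21.9 and 17.0 CPM in WT UUO 2 and 4, and 19.0 and 23.3 CPM in WT UUO 1 and 3. Nor did Calb1, another of the markers, in full: it was at 34.5 and 76.0 CPM in WT UUO 2 and 4, and 38.2 and 30.4 CPM in WT UUO 1 and 3. Umod, Slc12a3 and Pvalb shared the split. SMOC2 UUO 1, highest of its group in Egf, was also highest in Slc12a1 at 305 CPM and in the marker sum at 3088 CPM, but not in Slc12a3, at 327 CPM against 367 CPM in SMOC2 UUO 4. How much of the Egf fall goes with these segments as a whole was not tested.

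**Figure D3:**
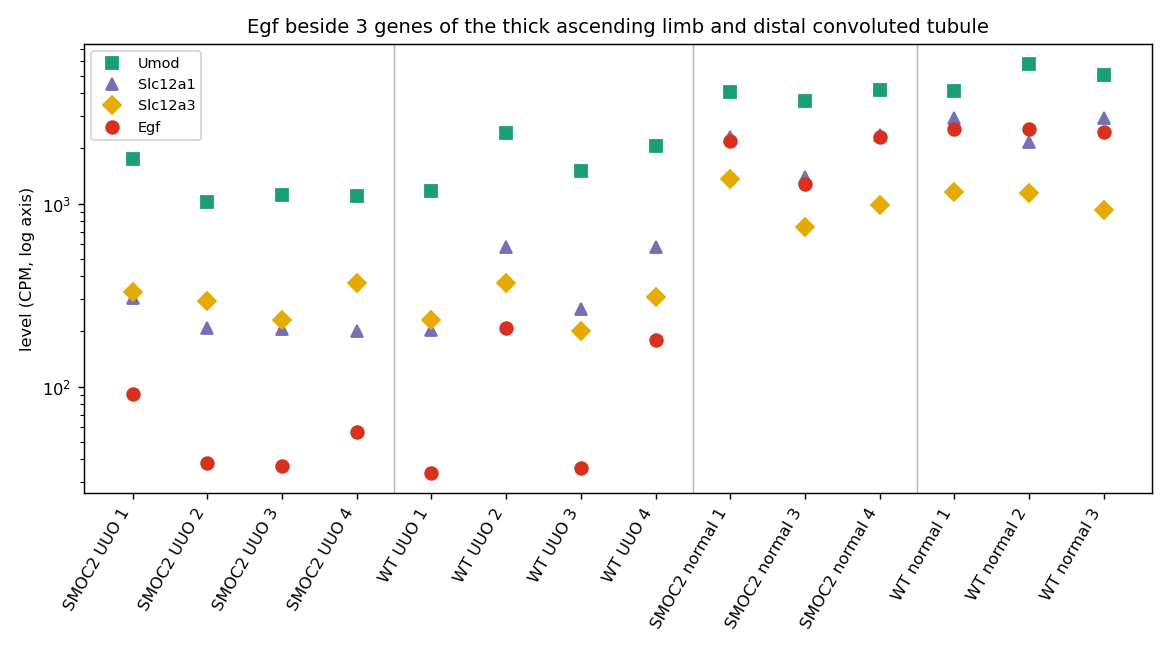
Levels of Egf, Umod, Slc12a1 and Slc12a3 in CPM (log axis) in each of the 14 libraries, grouped as SMOC2 UUO, WT UUO, SMOC2 normal and WT normal. Egf lies near Slc12a1 in normal libraries and below all 3 other genes in each of the 8 UUO libraries.

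Areg, nearly absent from normal kidney, rose to a low level after obstruction. It had 13, 23, 21 and 16 counts in SMOC2 UUO libraries 1 to 4, against 0, 0 and 1 count in SMOC2 normal libraries. In wild type it had 31, 2, 4 and 34 counts in WT UUO libraries 1 to 4, against 0, 0 and 1 count in WT normal libraries. The SMOC2 UUO libraries were alike, at 0.405 to 0.911 CPM, whereas WT UUO split into libraries 1 and 4 at 1.11 and 1.45 CPM and libraries 2 and 3 at 0.0673 and 0.141 CPM. As a ratio of scaled counts the rise was 35.2 in SMOC2 kidney (95% interval 6.12 to 1409) and 43.1 in wild-type kidney (95% interval 7.48 to 1725), intervals that cover counting error only. The edgeR test gave an adjusted p of 0.00725 in SMOC2 and 0.00445 in wild-type kidney, with 4 of 4 UUO libraries above all normal libraries each time. The fitted log2 change was 4.83 in SMOC2 (SE 1.47) and 5.09 in wild-type kidney (SE 1.45). With 1 count per normal group it depends on the prior count, and it reached 7.06 without SMOC2 normal 4 and 7.05 without WT normal 3, the libraries with that count, and 4.46 without WT UUO 4.

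Ereg, also low in normal kidney, rose in both labels. It stood at 0.747, 2.18, 0.954 and 0.771 CPM in SMOC2 UUO libraries 1 to 4, against 0.313, 0.111 and 0.104 CPM in SMOC2 normal libraries 1, 3 and 4. In wild type it stood at 2.98, 0.909, 0.424 and 0.898 CPM in WT UUO libraries 1 to 4, against 0.132, 0 and 0.273 CPM in WT normal libraries 1 to 3. UUO libraries were above normal libraries without overlap, and SMOC2 UUO 2 and WT UUO 1 stood well above their groups. The log2 change was 2.72 in SMOC2 kidney (SE 0.86, adjusted p = 0.0122) and 3.11 in wild-type kidney (SE 0.84, adjusted p = 0.00476). The adjusted p was 0.0523 without SMOC2 normal 4, with a log2 change of 2.45. The log2 change was 3.37 without SMOC2 normal 1, 4.07 without WT normal 3 and 2.30 without WT UUO 1.

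The libraries highest in Ereg were also highest in markers of urothelium, the lining of the renal pelvis and ureter. The sum of 10 such markers was 215 CPM in SMOC2 UUO 2 and 62.9 to 73.9 CPM in the other SMOC2 UUO libraries. It was 400 CPM in WT UUO 1 and 33.0 to 98.6 CPM in the other WT UUO libraries, with 10.5 to 16.9 CPM in SMOC2 normal and 7.04 to 56.6 CPM in WT normal libraries. Of the 10 markers, 8 rose in SMOC2 and 6 in wild-type kidney after UUO, where 32.5% and 31.3% of all genes tested rose. None was at 0 in any UUO library. Without SMOC2 UUO 2 and WT UUO 1, the Ereg log2 change was 2.23 in SMOC2 kidney (adjusted p = 0.00934) and 2.29 in wild-type kidney (adjusted p = 0.00780), and that of Areg was 4.64 (adjusted p = 0.0169) and 4.72 (adjusted p = 0.0155). The SMOC2 UUO libraries kept in that fit still had 62.9 to 73.9 CPM of these markers, so it does not take urothelium out of the comparison. WT UUO 4, with the most Areg of any library, had the lowest marker sum of its group. WT UUO 1, with the highest marker sum, had the next most Areg, at 1.11 CPM. Upk3a, which encodes a uroplakin of the urothelial surface, had a log2 change of 2.39 in SMOC2 kidney (adjusted p = 0.0837) and 1.81 in wild-type kidney (adjusted p = 0.148). Of 10 macrophage markers, 9 rose in SMOC2 and 10 in wild-type kidney, beside the same shares of all genes. Their sum was 1566 to 2448 CPM in SMOC2 UUO and 2009 to 2284 CPM in WT UUO. It was 237 to 281 CPM in SMOC2 normal and 226 to 259 CPM in WT normal libraries. Adgre1, the macrophage marker F4/80, rose by 4.18 in SMOC2 and by 3.76 in wild-type kidney on the log2 scale. The part of these cells in the ligand levels was not tested.

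**Figure D4:**
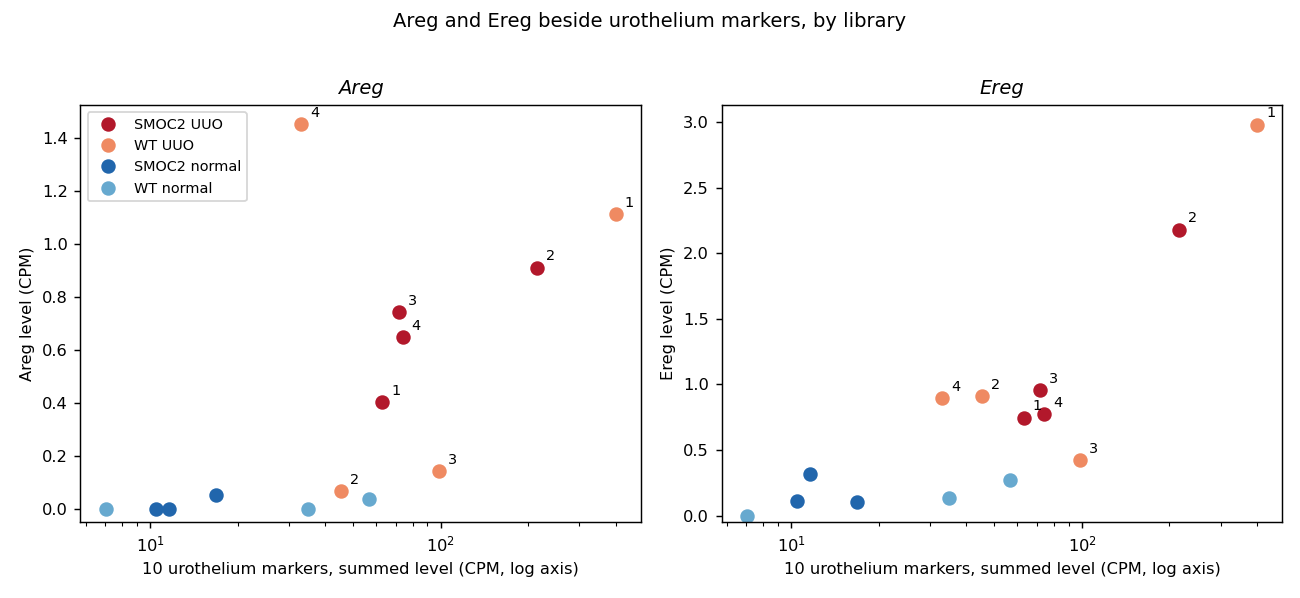
Areg (left) and Ereg (right) in CPM against the summed level of 10 urothelium markers in CPM (log axis), 1 point per library coloured by group, with UUO replicate numbers. The 2 highest Ereg points, WT UUO 1 at 2.98 CPM and SMOC2 UUO 2 at 2.18 CPM, are also the 2 highest in markers; Areg is highest in WT UUO 4.

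Hbegf, which encodes heparin-binding EGF, rose modestly in wild type. It stood at 28.9, 30.3, 23.5 and 15.2 CPM in SMOC2 UUO libraries 1 to 4, against 23.0, 18.4 and 15.0 CPM in SMOC2 normal libraries. In wild type it stood at 18.1, 27.1, 25.5 and 40.1 CPM in WT UUO libraries 1 to 4, against 15.0, 20.7 and 16.6 CPM in WT normal libraries. In each label 3 of 4 UUO libraries were above all normal libraries and 1 was within their range. The log2 change was 0.38 in SMOC2 kidney (95% interval -0.19 to 0.96, adjusted p = 0.224) and 0.67 in wild-type kidney (95% interval 0.09 to 1.24, adjusted p = 0.0427). The wild-type call was lost in 9 of 23 alternatives, with an adjusted p of 0.141 without WT UUO 4 and of 0.140 without WT normal 1. The difference between the labels was not called, as set out below for the interaction.

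Btc, a ligand of EGFR and ERBB4, fell after obstruction in both labels. It stood at 4.61, 6.14, 4.49 and 4.46 CPM in SMOC2 UUO libraries 1 to 4, against 9.39, 7.88 and 12.1 CPM in SMOC2 normal libraries. Its wild-type level stood at 5.78, 10.2, 5.30 and 8.89 CPM in WT UUO libraries 1 to 4, against 10.8, 12.1 and 16.9 CPM in WT normal libraries. UUO and normal libraries did not overlap, and WT UUO 2 and 4, the libraries with more Egf, were the higher ones in Btc as well. Its log2 change was -0.99 in SMOC2 kidney (SE 0.25, adjusted p = 0.00292) and -0.82 in wild-type kidney (SE 0.24, adjusted p = 0.00905, and 0.0621 without WT normal 3). Tgfa, which encodes transforming growth factor alpha, was at 7.39 to 11.1 CPM in SMOC2 UUO, 8.42 to 9.91 CPM in WT UUO, 9.96 to 11.7 CPM in SMOC2 normal and 9.57 to 10.6 CPM in WT normal libraries. Its log2 change was -0.30 in SMOC2 kidney (95% interval -0.59 to -0.0011, adjusted p = 0.0744) and -0.11 in wild-type kidney (95% interval -0.40 to 0.19, adjusted p = 0.523). Without SMOC2 UUO 2, its highest library there, the fall in SMOC2 kidney passed the test at a log2 change of -0.42 (adjusted p = 0.00915).

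The share of Egf among the ligand transcripts was lower after UUO. To compare genes, levels were divided by exon length and given as RPKM, CPM per kilobase of exon. Egf was at 4.93 ± 2.24 RPKM in SMOC2 UUO and 10.1 ± 8.21 RPKM in WT UUO (SD, n = 4 each), against 171 ± 49.9 RPKM in SMOC2 normal and 223 ± 4.76 RPKM in WT normal libraries (SD, n = 3 each). It made up 36.6% ± 11.5 of the summed RPKM of the 6 ligands in SMOC2 UUO and 44.0% ± 19.5 in WT UUO, against 95.4% ± 1.25 in SMOC2 normal and 96.5% ± 0.46 in WT normal libraries. Hbegf made up 38.1% ± 7.70 in SMOC2 UUO and 32.2% ± 11.2 in WT UUO, against 2.32% ± 0.85 in SMOC2 normal and 1.56% ± 0.25 in WT normal libraries. The other 5 ligands together were at 8.35 ± 1.89 RPKM in SMOC2 UUO and 9.72 ± 2.28 RPKM in WT UUO, beside 7.78 ± 0.610 RPKM in SMOC2 normal and 8.14 ± 0.995 RPKM in WT normal libraries, so the shares moved mainly with Egf. With the longest transcript in place of all exon bases as the length, Egf made up 47.3% in SMOC2 UUO, 54.4% in WT UUO, 97.1% in SMOC2 normal and 97.9% in WT normal libraries. Hbegf then made up 35.5% in SMOC2 UUO, 29.6% in WT UUO, 1.67% in SMOC2 normal and 1.12% in WT normal libraries. With this length Egf had the largest mean share in both UUO groups, whereas with all exon bases Hbegf had it in SMOC2 UUO.

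**Figure D5:**
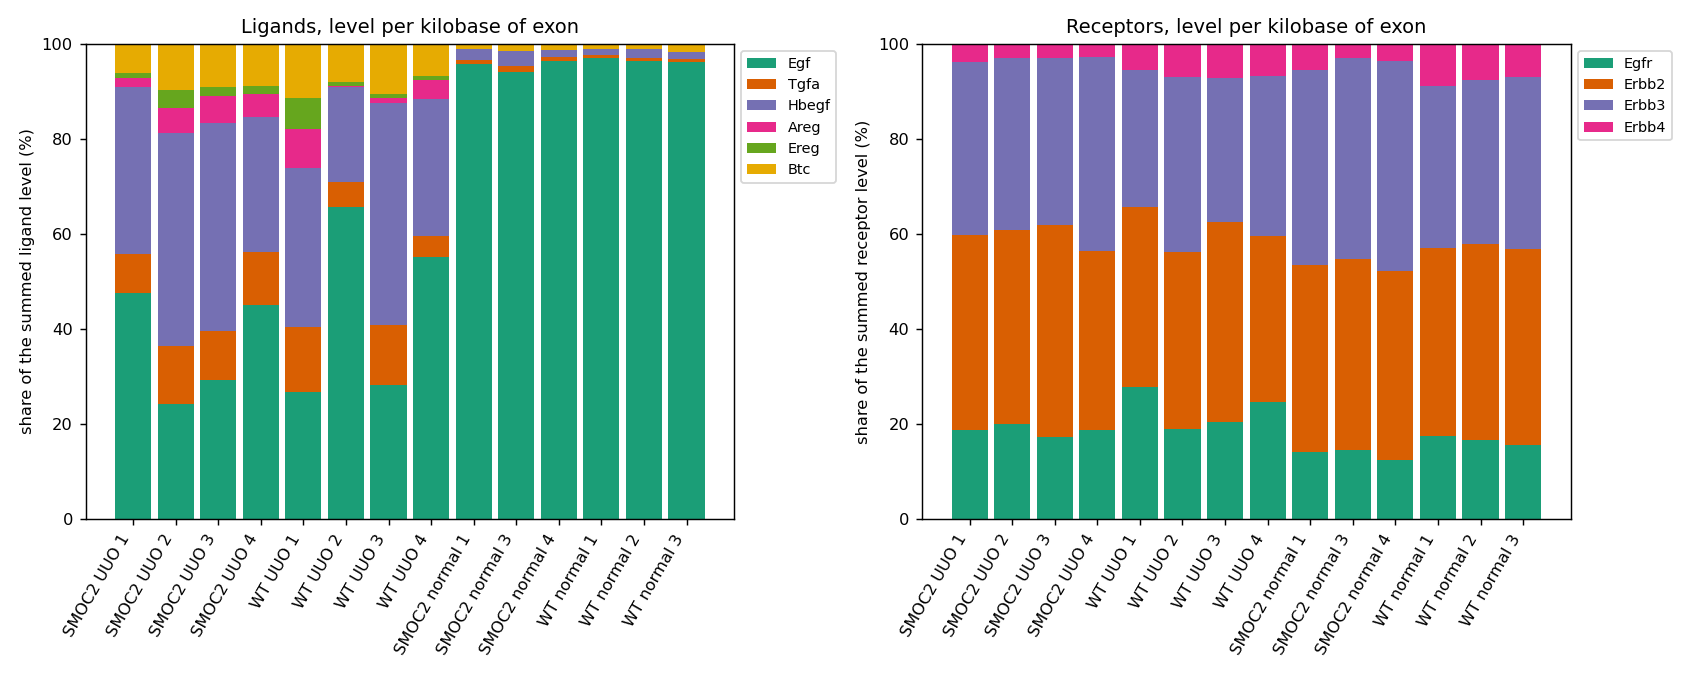
Share of each gene in the summed level per kilobase of exon, in percent, of the 6 ligands (left) and the 4 receptors (right), 1 bar per library in the order SMOC2 UUO, WT UUO, SMOC2 normal and WT normal. Egf takes 94.0 to 97.0% of the ligand sum in normal libraries and 24.3 to 65.7% in UUO libraries; Erbb4 is the smallest receptor share in each library.

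In order of RPKM, Egf led in normal kidney of both labels, far above the receptors. Erbb2 and Erbb3, which overlapped each other, came next, followed by Egfr, with Hbegf, Erbb4, Btc and Tgfa below and Areg and Ereg last. After UUO the order of means began with Erbb2 at 22.2 ± 2.08 RPKM in SMOC2 UUO and 16.5 ± 1.82 RPKM in WT UUO, then Erbb3 at 20.1 ± 1.75 and 14.2 ± 2.68 RPKM in the same groups. In WT UUO the Egf range, 3.004 to 18.4 RPKM, spanned those of Erbb2, Erbb3 and Egfr, and with the longest transcript as the length Egf came first there, at 24.0 RPKM, before Erbb2 at 17.2 RPKM. Egfr and Egf averaged 9.88 ± 1.07 and 10.1 ± 8.21 RPKM in WT UUO, and Hbegf and Egf overlapped in SMOC2 UUO at 5.06 ± 1.41 and 4.93 ± 2.24 RPKM. With the longest transcript as the length, the SMOC2 UUO mean of Egf was 11.7 RPKM, above Egfr at 11.3 RPKM and Hbegf at 8.47 RPKM. Erbb4 overlapped Tgfa in SMOC2 UUO and Btc in WT UUO, and Areg overlapped Ereg in both.

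Among the receptors, Erbb3 and Erbb4 fell modestly in both labels and Erbb2 fell in wild type. Erbb2 (the HER2 receptor) stood at 113, 129, 119 and 103 CPM in SMOC2 UUO libraries 1 to 4, against 124, 119.6 and 152 CPM in SMOC2 normal libraries. Its wild-type level stood at 78.0, 93.8, 94.8 and 77.7 CPM in WT UUO libraries 1 to 4, against 119, 91.9 and 139 CPM in WT normal libraries. The groups overlapped in both labels, in wild type through WT normal 2. Its log2 change was -0.19 in SMOC2 kidney (95% interval -0.48 to 0.11, adjusted p = 0.250) and -0.44 in wild-type kidney (95% interval -0.73 to -0.15, adjusted p = 0.0120, and 0.0871 without WT normal 3).

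Erbb3, a neuregulin receptor, stood at 116, 132, 108 and 127 CPM in SMOC2 UUO libraries 1 to 4, against 149.6, 145 and 195 CPM in SMOC2 normal libraries. Its wild-type level stood at 68.3, 106, 79.0 and 87.1 CPM in WT UUO libraries 1 to 4, against 118, 88.4 and 141 CPM in WT normal libraries. SMOC2 UUO and SMOC2 normal libraries did not overlap, whereas WT UUO 2 lay above WT normal 2. Its log2 change was -0.43 in SMOC2 kidney (SE 0.17, adjusted p = 0.0370) and -0.44 in wild-type kidney (SE 0.17, adjusted p = 0.0334).

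Erbb4, the receptor for neuregulins and for some EGF ligands, stood at 25.2, 21.7, 18.5 and 18.1 CPM in SMOC2 UUO libraries 1 to 4, against 40.3, 20.9 and 32.3 CPM in SMOC2 normal libraries. Its wild-type level stood at 27.0, 41.5, 38.5 and 35.8 CPM in WT UUO libraries 1 to 4, against 63.1, 40.1 and 55.5 CPM in WT normal libraries. The ranges overlapped in each label through 1 low normal library, SMOC2 normal 3 and WT normal 2. Its log2 change was -0.58 in SMOC2 kidney (SE 0.22, adjusted p = 0.0310) and -0.57 in wild-type kidney (SE 0.21, adjusted p = 0.0307). These Erbb3 and Erbb4 calls were lost under upper-quartile scaling, at adjusted p of 0.108 and 0.0729 in SMOC2 and 0.0918 and 0.0701 in wild-type kidney, and without single libraries. The largest adjusted p in SMOC2 kidney was 0.200 for Erbb3 without SMOC2 normal 4 and 0.199 for Erbb4 without SMOC2 normal 1, and in wild-type kidney 0.195 for Erbb3 without WT normal 3 and 0.144 for Erbb4 without WT normal 1. In wild type they were also lost without SMOC2 UUO 2 and WT UUO 1, at 0.0992 for Erbb3 and 0.0904 for Erbb4. Egfr, the receptor of all 6 ligands, was at 99.8 to 137 CPM in SMOC2 UUO, 99.6 to 124 CPM in WT UUO, 93.7 to 103 CPM in SMOC2 normal and 80.2 to 114 CPM in WT normal libraries. Its log2 change was 0.24 in SMOC2 kidney (95% interval -0.05 to 0.53, adjusted p = 0.135) and 0.12 in wild-type kidney (95% interval -0.16 to 0.41, adjusted p = 0.447).

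Between the labels, no member passed the test within either state. In SMOC2 UUO against WT UUO, 0 of 10 members were called, where 0.831% of all genes were. By the same edgeR test 4 members had an unadjusted p under 0.05, as had 15.2% of all genes. DESeq2 called 3 (Erbb2, Erbb3 and Erbb4) and 4.68% of all genes it gave an adjusted p. In SMOC2 normal against WT normal, 0 of 10 were called, where 0.0279% of all genes were. There, 2 members and 12.8% of all genes had an unadjusted p under 0.05, and DESeq2 called 0 members and 0.979% of all genes. The ranges of SMOC2 UUO and WT UUO libraries did not overlap for 3 members, Erbb2, Erbb3 and Erbb4, as was the case for 9.85% of all genes. SMOC2 normal and WT normal libraries did not overlap for Egf and Erbb3, as was the case for 16.8% of all genes.

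Erbb4 averaged 20.9 ± 3.30 CPM in SMOC2 UUO and 35.7 ± 6.23 CPM in WT UUO (SD, n = 4 each), a log2 difference of -0.77 (95% interval -1.20 to -0.34, adjusted p = 0.0867). It averaged 31.2 ± 9.72 CPM in SMOC2 normal and 52.9 ± 11.7 CPM in WT normal (SD, n = 3 each), a log2 difference of -0.77 (95% interval -1.26 to -0.27, adjusted p = 0.267). All 4 SMOC2 UUO libraries were below all WT UUO libraries, and 2 of 3 SMOC2 normal libraries were below all WT normal libraries. Erbb3 averaged 121 ± 10.5 CPM in SMOC2 UUO and 85.2 ± 16.1 CPM in WT UUO, a log2 difference of 0.51 (95% interval 0.17 to 0.84, adjusted p = 0.138). It averaged 163 ± 27.5 CPM in SMOC2 normal and 116 ± 26.3 CPM in WT normal, a log2 difference of 0.49 (95% interval 0.11 to 0.88, adjusted p = 0.311). All SMOC2 libraries were above all WT libraries in each state. In UUO kidney the log2 difference was 0.43 for Erbb2 (95% interval 0.16 to 0.70, adjusted p = 0.123) and -0.62 for Btc (95% interval -1.11 to -0.12, adjusted p = 0.215).

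The mean of the differences in both states was tested as well, a comparison added after these values were seen. There, 2 of 10 members passed, where 2.19% of all genes did: Erbb4 with a log2 difference of -0.77 (SE 0.15, adjusted p = 0.0245) and Erbb3 with 0.50 (SE 0.12, adjusted p = 0.0479). The Erbb3 call was lost in 16 of 22 alternatives and the Erbb4 call in 5 of 22, with adjusted p of up to 0.129 and 0.0648. Without SMOC2 UUO 2 and WT UUO 1 both were lost, at a log2 difference of 0.44 for Erbb3 (adjusted p = 0.129) and -0.83 for Erbb4 (adjusted p = 0.0566). In each library Erbb4 was the smallest part of the receptor transcripts, at 3.12% ± 0.48 of the summed RPKM in SMOC2 UUO and 6.62% ± 0.74 in WT UUO, and 3.98% ± 1.26 in SMOC2 normal and 7.80% ± 0.97 in WT normal libraries.

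Egf averaged 55.6 ± 25.3 CPM in SMOC2 UUO and 114 ± 92.6 CPM in WT UUO (SD, n = 4 each), a log2 difference of -1.04 (95% interval -2.15 to 0.07, adjusted p = 0.368), and the ranges overlapped. It averaged 1927 ± 562 CPM in SMOC2 normal and 2518 ± 53.6 CPM in WT normal (SD, n = 3 each), a log2 difference of -0.39 (95% interval -1.65 to 0.88, adjusted p = 0.824). The change after UUO did not differ detectably between labels for any member: the interaction of label with UUO called 0 of 10 members and 0% of all genes, with adjusted p of 0.854 to 0.9998 over the members. At an unadjusted p under 0.05 there were 1154 genes (6.44%) and 0 members, and DESeq2 called 25 genes (0.14%) and 0 members. For Egf the interaction was -0.65 on the log2 scale with a 95% interval of -2.33 to 1.02, and for Erbb4 -0.0070 with a 95% interval of -0.66 to 0.64. Differences between the labels within those intervals remain possible.

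The lists of genes that act with the family are read against the 32.5% and 31.3% of all genes that rose and the 30.4% and 29.8% that fell in SMOC2 and wild-type kidney. Of the other ligands of these receptors, Nrg1, which encodes neuregulin 1, rose to 44.8 ± 13.3 CPM in SMOC2 UUO, against 11.1 ± 0.58 CPM in SMOC2 normal libraries (log2 change 2.01, SE 0.22, adjusted p = 2.21e-06). It rose to 38.6 ± 7.98 CPM in WT UUO, against 12.8 ± 1.22 CPM in WT normal libraries (log2 change 1.59, SE 0.21, adjusted p = 1.74e-05). Nrg4 had a log2 change of -0.31 in SMOC2 kidney (adjusted p = 0.223) and fell by 0.67 in wild-type kidney (adjusted p = 0.0128). Epgn, the epigen gene next to Ereg, had 9 counts in SMOC2 UUO, 11 in WT UUO, 0 in SMOC2 normal and 4 in WT normal kidney over each group, too few to test.

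Of 11 genes for the shedding of ligands, 8 rose and 1 fell in SMOC2 kidney and 8 rose and 2 fell in wild-type kidney, with median log2 changes of 0.72 and 0.65. The genes that fell were Timp3, an inhibitor of these proteases, in both labels and Adam9 in wild type. The summed level of the list was 1187 to 1207 CPM in SMOC2 UUO and 1089.7 to 1408 CPM in WT UUO. It was higher in normal kidney, at 1549 to 1639.7 CPM in SMOC2 normal and 1631 to 1958 CPM in WT normal libraries. That sum includes the inhibitor Timp3, whose own level is not given here, so it is no measure of the proteases alone. Adam17, the main protease for several of these ligands, had a log2 change of 0.69 in SMOC2 kidney (SE 0.12, adjusted p = 2.61e-04) and 0.65 in wild-type kidney (SE 0.12, adjusted p = 4.04e-04). Rhbdf2, an inactive rhomboid that brings ADAM17 to the cell surface, had a log2 change of 1.39 in SMOC2 kidney and 1.72 in wild-type kidney (SE 0.11 each), and rose in both. Adam10, another sheddase, rose by 0.72 in SMOC2 and by 0.45 in wild-type kidney on the log2 scale. Of 19 inhibitors of receptor signalling, 8 rose and 4 fell in each label, with median log2 changes of 0.22 in SMOC2 and 0.03 in wild-type kidney. Errfi1, which encodes the EGFR inhibitor MIG6, was among those that fell: it averaged 189 ± 15.2 CPM in SMOC2 UUO, against 633 ± 147 CPM in SMOC2 normal, and 302 ± 111 CPM in WT UUO, against 691 ± 13.9 CPM in WT normal libraries. Spry1, a Sprouty inhibitor, rose by 0.86 in SMOC2 and 0.56 in wild-type kidney on the log2 scale, and Lrig1 had log2 changes of -0.25 and -0.16 that did not pass the test. Dusp6, an ERK phosphatase, fell by 0.31 in SMOC2 kidney (adjusted p = 0.0485) and had a log2 change of 0.03 in wild-type kidney (adjusted p = 0.857), a difference that the interaction did not call.

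Of 27 adaptors and kinases below the receptors, 10 rose and 9 fell in SMOC2 kidney and 10 rose and 10 fell in wild-type kidney, with median log2 changes of -0.03 and -0.02, near the shares of all genes. Shc1, an adaptor that binds the activated receptors, had a log2 change of 0.91 in SMOC2 kidney and 0.78 in wild-type kidney (SE 0.07 each), and rose in both. Grb2, another adaptor, rose by 0.34 in SMOC2 and 0.35 in wild-type kidney, and Gab1 had log2 changes of -0.35 (adjusted p = 0.0290) and -0.20 (adjusted p = 0.183). Of 15 genes that growth factors induce, 12 rose and 2 fell in each label, with median log2 changes of 2.16 in SMOC2 and 1.85 in wild-type kidney. Egr1, an early response transcription factor, had a log2 change of 3.07 in SMOC2 kidney and 3.56 in wild-type kidney (SE 0.19 each), and Myc one of 2.75 and 2.90 (SE 0.17 each). Plaur, the urokinase receptor, rose by 2.16 in SMOC2 and by 1.85 in wild-type kidney on the log2 scale. Many stimuli other than EGF ligands induce these genes. Against wild type, 0 genes of the shedding, inhibitor and adaptor lists were called in UUO kidney, and 1 of the induced genes, Etv5, was higher in SMOC2 UUO.

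Genes with the pattern most like each member were found by the root mean square difference of their log2 levels over 14 libraries, after each gene was centred on its own mean, among 10610 genes. Closest to Egf were Ugt3a1 at 0.45, Gpx6 at 0.60 and Slc22a7 at 0.61 on the log2 scale, genes named for a glycosyltransferase, a peroxidase and an organic anion transporter. Ugt3a1 averaged 5.78 CPM in SMOC2 UUO and 10.5 CPM in WT UUO, against 174 CPM in SMOC2 normal and 182 CPM in WT normal libraries. Closest to Erbb2 was Bahcc1 at 0.10, followed by Polr2a and Hgs at 0.13. Closest to Erbb3 were Them6 at 0.17, Fmnl1 at 0.18 and Erbb2 itself at 0.19, and closest to Erbb4 were Srgap3, Slc25a32 and Arhgap5 at 0.27. Btc was nearest to Mfsd3 and Sim1 at 0.24 and Slc45a3 at 0.25, and Hbegf to Kctd12 at 0.24, Crem at 0.25 and Ccdc134 at 0.26. Egfr was nearest to Kmt2a at 0.09 and Sptan1 and Crybg1 at 0.10, and Tgfa to Mpzl3, Nudt5 and Zbtb18 at 0.11. Levels were not scaled to a common spread, so genes that change little lie close to each other. Distances therefore do not rank how well the members are matched. At few counts, Areg and Ereg had larger distances, of 0.73 to Lacc1 and 0.78 to Snx10 and Car13 for Areg, and of 0.63 to Acta2 and Aldh18a1 and 0.64 to Myof for Ereg.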

How the data were processed

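Whole-kidney RNA was sequenced in 14 libraries with a stranded messenger RNA kit, per the labels' protocols. Per the submitters' processing notes, the tools were STAR 2.4.1d and featureCounts 1.4.4 (Subread), with build mm10. No source used here names the annotation or strand setting, so genes with exons on the opposite strand are uncertain. The deposited files hold the authors' raw counts per gene, not normalized. Of 47729 gene identifiers, 47310 matched GENCODE M21 on GRCm38, and the other 419 held 0.0288% of counts.

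In R 4.3.3, edgeR 4.0.16 (filterByExpr, TMM, glmQLFit and glmQLFTest over 4 groups) tested 17926 genes in 5 planned comparisons and 1 added later. Scaling factors were 1.13 to 1.20 in UUO and 0.80 to 0.86 in normal libraries. P-values were adjusted over all genes tested (Benjamini-Hochberg, threshold 0.05), and intervals cover 95%. CPM are counts per 1000000 of scaled library size. Counting error alone is small for most members and large for Areg and Ereg.

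The members and the lists of pathway and marker genes were chosen with earlier results of these data known. The text names the members, 1 to 4 genes per list set by name, and the 3 genes nearest each member with a mean log2 CPM of at least 3. Pvalb, Calb1, Timp3, Adam9, Etv5, Avpr2, S100a8, S100a9 and Ms4a2 are outside that rule and were chosen after their values were seen. The alternatives were scaling by median ratio or by upper quartile, fits unfiltered or with 50 counts required in 3 libraries, DESeq2 1.42.0, voom from limma 3.58.1, a replicate block, fits to the compared groups alone, and the omission of each library in turn. Leaving out SMOC2 UUO 2 and WT UUO 1 together was added after seeing the data. Replicate files differed by more than sampling noise (chi-square per gene of at least 17.0 over 18 pairs).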

Additional observations from a re-analysis of the deposited data

Results flagged for a closer look

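In SMOC2 UUO 2, Ereg was at 2.18 CPM, and the gap to the next library was 0.855 of the range of the 4 SMOC2 UUO libraries. In the same library Btc was at 6.14 CPM, with a gap of 0.915 of the range. Of 20 groups of 4 libraries tested over the members, 2 passed Dixon's 95% limit, and chance marks about 1 in 20. Both values come from SMOC2 UUO 2, which also had the highest urothelium marker sum of its group, 215 CPM.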

How the results depend on the processing

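Egf and Areg kept their direction and call after UUO in both labels in all alternatives that gave a value, with Egf between -5.46 and -4.96 in SMOC2 and -4.94 and -4.15 in wild-type kidney on the log2 scale. Areg lay between 4.01 and 7.06 in SMOC2 and between 3.47 and 7.05 in wild-type kidney. Leaving out 1 library at a time gave 3 to 7 members changed in SMOC2 (6 with all libraries) and 3 to 8 in wild-type kidney (8 with all). With upper-quartile scaling, all genes tested had a median log2 change of 0.15 in SMOC2 and 0.16 in wild-type kidney, where it was 0.04 and 0.05 with TMM. That scaling turned Tgfa to 0.0072 in wild type and brought Egfr in SMOC2 kidney to a call (0.35, adjusted p = 0.0296). Egfr in wild type was -0.028 (without WT normal 2) to 0.203 over the libraries left out.

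For SMOC2 against wild type in UUO kidney, 149 genes were called, against 757 by DESeq2 (with 3 members), 232 by limma-voom, 69 with the block, 39 with only the groups compared, 15 without SMOC2 UUO 2 and WT UUO 1, and 29 to 158 without single libraries. In normal kidney 5 genes were called, against 12 with no filter, 172 by DESeq2, 9 by limma-voom, 8 with only the groups compared and 4 to 21 without single libraries. The interaction called 0 genes, against 1 with no filter, 25 by DESeq2, 1 with the block and 0 to 2 without single libraries. The mean of both states called 392 genes and 2 members, against 184 and 1 with no filter, 243 and 1 with the block, and 20 and 0 without SMOC2 UUO 2 and WT UUO 1. Without single libraries it called 54 to 428 genes and 0 to 2 members. DESeq2 called 1300 genes there, Erbb2 among them (log2 difference 0.31, adjusted p = 0.0363). The cause of these shifts was not tested.

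Libraries that share a replicate number showed little common deviation (r from -0.0996 to 0.132 across genes over 18 pairs, 1 above 0.1). With 3 or 4 libraries per group this cannot exclude that the numbers mark a shared animal, day or batch, so the block was kept as an alternative. With the replicate block, the Hbegf call in wild type (adjusted p = 0.0619) and the Erbb4 calls in SMOC2 (0.0559) and wild type (0.0614) were lost, as was Erbb3 in SMOC2 (0.0508), and Tgfa fell in SMOC2 kidney (-0.37, adjusted p = 0.0338). Depth limits Areg and Ereg, at most 34 and 83 counts a library.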

Other observations

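Other nephron and immune lists give the setting of these changes. Their counts stand beside the 32.5% and 31.3% of all genes tested that rose in SMOC2 and wild-type kidney. In the same order, 30.4% and 29.8% of all genes fell. After UUO all 8 proximal tubule markers fell in both labels, and Lrp2 fell to 844 ± 85.4 CPM in SMOC2 UUO, against 6319 ± 1007 CPM in SMOC2 normal, and to 754 ± 356 CPM in WT UUO, against 6442 ± 400 CPM in WT normal libraries. Of 9 collecting duct markers, 8 fell in SMOC2 and 7 in wild-type kidney, and Avpr2 rose in both. All 8 mesenchyme markers rose in both labels. Of 9 T cell and innate lymphoid cell markers, 7 rose in SMOC2 and 8 in wild-type kidney, Cd3e of the T cell receptor complex by 2.62 and 2.19 on the log2 scale. Of 6 neutrophil, basophil and mast cell markers 3 had enough counts to test, and S100a8 and S100a9 rose in both labels, while Ms4a2 fell in wild type. Of 10 markers of injured tubule, 9 rose in SMOC2 and 10 in wild-type kidney. The gene left out in SMOC2 was Havcr1, which encodes kidney injury molecule 1. It stood at 756 ± 157 CPM in SMOC2 UUO, against 304 ± 38.1 CPM in SMOC2 normal (log2 1.32, adjusted p = 0.148), and at 317 ± 57.3 CPM in WT UUO, against 53.7 ± 79.4 CPM in WT normal libraries (log2 2.56, adjusted p = 0.0136). Endothelial markers gave 1 rise and 2 falls of 5 in SMOC2 and 0 rises and 2 falls in wild-type kidney. Podocyte markers gave 1 rise and 3 falls of 5 in each label. With so few genes, these endothelial and podocyte counts cannot be told from the shares of all genes.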
